A study of Mus musculus with 2 samples.

Results

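A set of 1315 binding sites of the corepressor SMRT in mouse liver was examined, each of which was listed for livers taken at Zeitgeber time (ZT) 22 and missing from the list for ZT10. The sites were selected on 2 measured values, the authors' peak score and overlap between the lists: they are the peaks of the ZT22 list with a score of 2.0 or more, called confident here, that shared not even 1 bp with any peak of the ZT10 list, whatever that peak's score. They are 1315 of the 8306 confident ZT22 peaks and of the 24078 ZT22 peaks in all, beside 21370 peaks in the ZT10 list. Neither the score nor the absence from the other list is therefore a finding, and both are given as a description.

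SMRT does not bind DNA by itself. Nuclear receptors without an activating ligand, among them the thyroid hormone and retinoic acid receptors, tether it to their sites, where it carries and activates the histone deacetylase HDAC3 and so lowers histone acetylation. In liver the related complex of NCoR and HDAC3 is known to be recruited to lipid metabolism genes in a daily rhythm through the clock receptor Rev-erb alpha.

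Chromatin came from untreated male C57BL/6 mice, 12 weeks of age and fed freely, with 4 mice killed at ZT10 (5 pm, toward the end of the light phase) and 4 at ZT22 (5 am, toward the end of the dark phase). The labels give no genotype beyond the strain. Cross-linked whole liver was lysed, chromatin of each mouse was precipitated with an antibody against SMRT, and the DNA of each time was pooled into 1 library. There were thus 2 libraries and no replicates, so no p-value was computed between times, and occupancy in fewer cells cannot be told apart from less occupancy per cell. The sources used here do not give the read depth, an input control or the scale of the score. Within each list the peaks are named for the other sample's clock time (5 pm in the list of the sample labelled ZT22), so times follow the sample labels and every direction swaps if the names are right. All positions are 1-based and in mm8, the build named in the submitters' processing notes. Genes and sequence under the peaks were not analysed here, because the gene and promoter tables at hand are of another build.

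Most ZT22-only sites were of modest strength. Their scores ran from 2.0 to 11.8 with a median of 2.3, against a median of 2.7 for the 6991 confident ZT22 peaks that did overlap the ZT10 list. Of the 1315, 875 scored below 2.5, 143 scored 3 or more and 9 scored 5 or more. By rank in the ZT22 list they ran from 5 to 8304 with a median of 5825, and 14 stood among the 1000 strongest. Just inside the score limit, 219 of the 786 peaks listed at 2.0 were ZT22-only, and just outside it, 278 of the 909 listed at 1.9 had no ZT10 partner either. At the other edge of the rule, 23 sites lay less than 250 bp from the nearest ZT10 peak, whereas 53 confident ZT22 peaks lay 150 bp to below 200 bp away and counted as overlapping. Distances are between peak starts, which equal distances between centres because every peak is 200 bp wide.

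The ZT22-only share of the confident peaks was 15.8% (95% interval 15.1 to 16.6), and 39.4% of the whole ZT22 list had no ZT10 partner. The same rule turned around gave 668 ZT10-only peaks, 8.02% (7.45 to 8.63) of the 8327 confident ZT10 peaks, and 31.7% over the whole ZT10 list. The intervals are exact Clopper-Pearson intervals and cover counting error only, not the spread between mice. The surplus of ZT22-only over ZT10-only sites was carried by scores below 4. At scores from 2.0 to below 2.2, 26.9% (24.9 to 29.0) of ZT22 peaks and 15.0% (13.2 to 16.9) of ZT10 peaks had no partner. From 3 to below 4 these shares were 7.32% (6.12 to 8.67) and 4.68% (3.77 to 5.74). From 4 to below 5 they were 1.82% (0.914 to 3.24) and 2.51% (1.52 to 3.90), and at 5 or more 9 of 593 (0.696% to 2.86%) and 17 of 681 (1.46% to 3.97%), with intervals that overlapped.

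Because the score may be scaled differently in the 2 libraries, the lists were also compared by rank. Among the 1000 strongest peaks of each list, 14 were ZT22-only (0.767% to 2.34%) and 25 ZT10-only (1.62% to 3.67%). Among ranks 1001 to 2000 the order was the other way, with 5.60% (4.26 to 7.21) and 2.80% (1.87 to 4.02). At ranks 4001 to 5000 the shares were 19.7% (17.3 to 22.3) and 8.90% (7.21 to 10.8). At ranks 7001 to 8000 they were 25.9% (23.2 to 28.7) and 15.0% (12.8 to 17.4). In each of the bands from rank 1001 on, the ZT22 interval lay above the ZT10 interval. The ZT10 list is shorter and so offers fewer possible partners. With the ZT22 list kept to its 21370 highest-ranked peaks, an alternative chosen after seeing the data, ZT10-only sites numbered 715, beside 1315 ZT22-only sites. Whether list length, read depth or calling settings account for the difference was not tested.

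**Figure D1:**
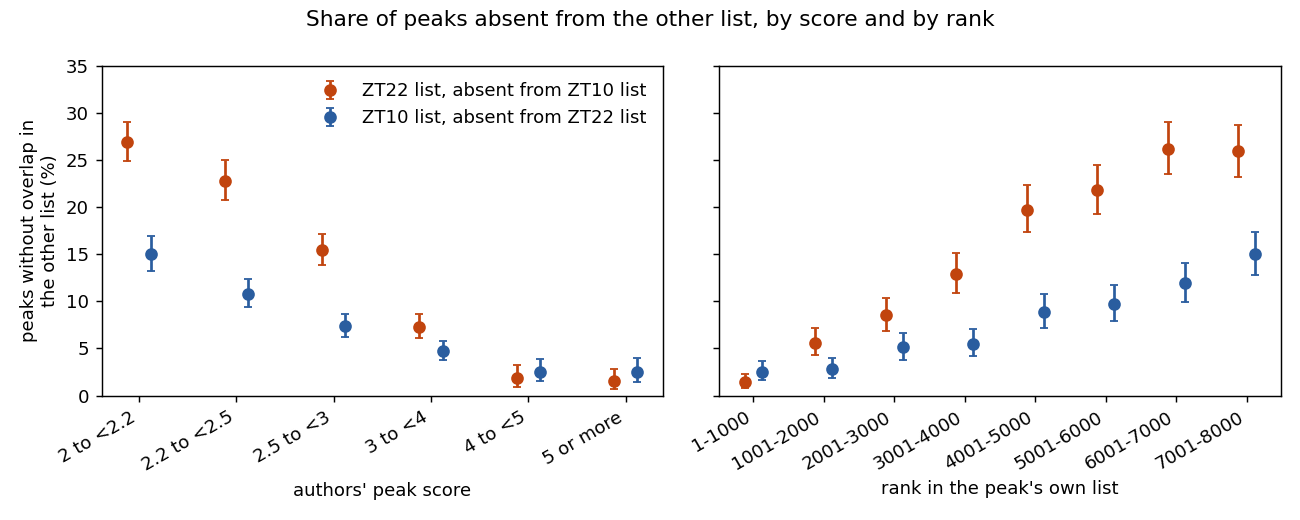
Percentage of peaks with no overlap in the other list, by the authors' score (left) and by rank in the peak's own list (right), for the ZT22 list (orange) and the ZT10 list (blue); bars are exact 95% intervals for counting error. The ZT22 share exceeds the ZT10 share at scores from 2.0 to below 4 and from rank 1001 on, and is not above it among the strongest peaks.

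ZT22-only sites lay about as often within 1 kb or 10 kb of a ZT10 call as of another ZT22 peak. The nearest ZT10 peak was at a median distance of 5.46 kb, with quartiles of 1.37 and 17.2 kb. It lay within 1 kb of 269 sites (20.5%, 18.3 to 22.7) and within 10 kb of 826 (62.8%, 60.1 to 65.4). For another ZT22 peak these were 253 (19.2%, 17.1 to 21.5) and 866 (65.9%, 63.2 to 68.4). ZT22-only peaks with scores below 2, of which there were 8168, lay farther from the ZT10 list, with 15.0% (14.3 to 15.8) within 1 kb and 50.7% (49.6 to 51.8) within 10 kb. ZT10-only confident sites lay nearer to the other list, with 34.9% (31.3 to 38.6) within 1 kb and 72.6% (69.1 to 76.0) within 10 kb. By score, the intervals of the ZT22-only and ZT10-only confident sites for the share within 1 kb lay apart from 2.2 to below 3. At scores from 2.5 to below 3, 18.5% (14.3 to 23.4) of ZT22-only and 45.0% (36.3 to 54.0) of ZT10-only sites had such a neighbour within 1 kb. From 2.2 to below 2.5 the shares were 21.3% (17.2 to 25.8) and 33.2% (26.5 to 40.4). From 2.0 to below 2.2 they were 19.0% (15.7 to 22.8) and 27.8% (22.0 to 34.1), whose intervals overlapped, as did those at 3 or more. Overlap of intervals does not show that the shares are equal, and the differences were not tested. Leaving out every site within 1 kb of the other list left 1046 ZT22-only and 435 ZT10-only sites, a ratio of 2.40 against 1.97 before. The distances run to lists of unequal length, with 21370 ZT10 and 24078 ZT22 peaks, and the effect of this on them was not tested.

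**Figure D2:**
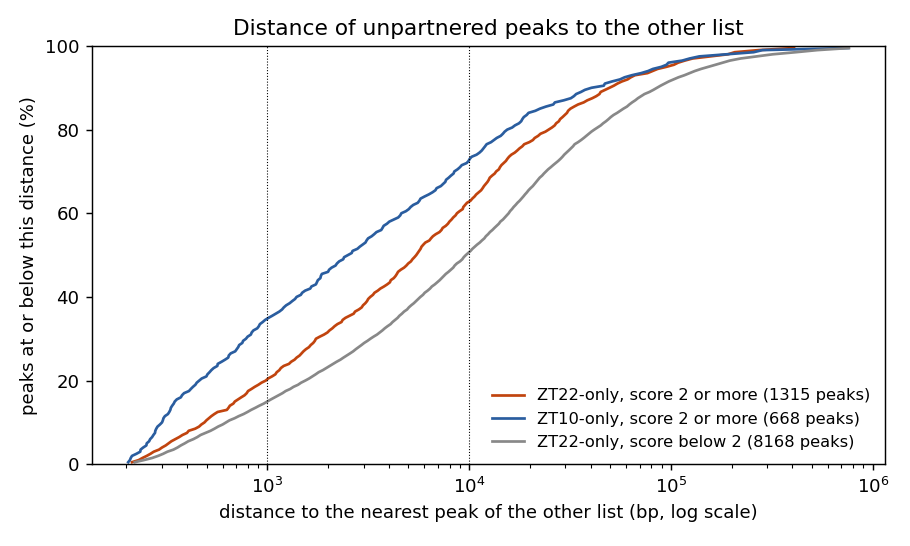
Cumulative percentage of unpartnered peaks against the distance in bp (log scale) to the nearest peak of the other list; dotted lines mark 1 kb and 10 kb. The curve of the 1315 ZT22-only confident sites runs between that of the 668 ZT10-only confident sites and that of the 8168 weaker ZT22-only peaks at 1 kb (20.5%, 34.9% and 15.0%) and at 10 kb (62.8%, 72.6% and 50.7%), and the curves of the confident sites cross beyond 100 kb.

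The 269 near sites were of different kinds. For 163 of them (60.6%, 54.5 to 66.5) the nearest ZT10 peak overlapped another ZT22 peak, so the site was an additional ZT22 call beside a place listed at both times. For the other 106 (39.4%, 33.5 to 45.5) the nearest ZT10 peak had no ZT22 partner either, so each library had its own call there. Of these 106 ZT10 peaks, 43 were confident themselves. This second kind made up 60 of the 100 sites from 200 to below 400 bp (60.0%, 49.7 to 69.7), 18 of the 67 from 400 to below 600 bp (26.9%, 16.8 to 39.1) and 28 of the 102 from 600 bp to 1 kb (27.5%, 19.1 to 37.2). No ZT22-only site had another ZT22 peak closer than 241 bp. The shortest distances thus left less room for a ZT22 partner of the ZT10 peak, so the higher share there is partly fixed in advance. In 89 of the 106 cases the ZT22-only site had no other ZT22 peak within 1 kb. The near ZT10-only sites showed a like split, with an unpartnered nearest ZT22 peak for 91 of 233 (39.1%, 32.8 to 45.6).

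The strongest ZT22-only site belongs to that second kind. It lies at chr12:104739834-104740033, has a score of 11.8 and ranks 5 in the ZT22 list. A ZT10 peak with a score of 9.6 and rank 26 began 265 bp below it, and another, with a score of 10.7 and rank 15, began 332 bp above it. No other ZT22 peak lay within 47.2 kb. ZT10 peaks within 1 kb on both sides were found at 15 of the 1315 sites (1.14%, 0.640 to 1.87), a class defined after the values were seen. A further 5 of these scored 3 or more, at chr11:75278774-75278973 (score 3.8), chr13:94738055-94738254 (3.5), chr8:97275856-97276055 (3.5), chr11:68940762-68940961 (3.2) and chr13:51859827-51860026 (3.1). Each of these 5 had another ZT22 peak within 310 to 552 bp that overlapped the ZT10 list, unlike the chromosome 12 site.

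Single calls of each library side by side were also seen at other strong sites. The site at chr18:61563672-61563871 scored 5.3 at rank 444, and an unpartnered ZT10 peak with a score of 4.8 at rank 767 began 253 bp below it. At chr15:83984124-83984323 the ZT22 score was 4.4 at rank 838, and the ZT10 peak 248 bp away scored 4.8 at rank 737. At chr14:24041445-24041644 the ZT22 score was 3.6 at rank 1516, and the ZT10 peak 224 bp away scored 4.0 at rank 1405. These 3 had the shortest distances to a ZT10 peak among the 50 ZT22-only sites with the highest scores. At all 3 places each list held a call of its own and the calls did not overlap.

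On chromosome 5 a pair of ZT22-only sites stood beside a single ZT10 peak. They lie at chr5:125678578-125678777 (score 6.3, rank 240) and chr5:125679215-125679414 (score 5.9, rank 304), 637 bp apart. The ZT10 peak lay 343 bp beyond the second, scored 8.4 and ranked 68, and it had no ZT22 partner. A site 4.64 kb from the first was listed at both times, with a score of 3.5 at ZT22 and 3.3 at ZT10.

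Other strong sites were additional calls within regions occupied at both times. The site at chr4:49570229-49570428 scored 7.9 at rank 74. It lay 691 bp from a shared ZT22 peak with a score of 8.3, whose ZT10 counterpart scored 4.2 and ranked 1182. On chromosome 1, the 70 kb on either side of the site with the third-highest score held 7 sites listed at both times, 4 ZT22-only sites including that one, and no ZT10-only peak. The ZT22-only sites were chr1:90043000-90043199 (score 3.8), chr1:90044873-90045072 (7.2, rank 130), chr1:90100996-90101195 (5.2, rank 476) and chr1:90109592-90109791 (2.2). The first pair lay 1.87 kb apart, and the stronger of them was 6.75 kb from the nearest ZT10 peak. The shared sites of that stretch scored 1.1 to 7.2 at ZT22 and 1.2 to 7.4 at ZT10, and the strongest ZT22-only site there equalled the highest shared ZT22 score.

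The remaining sites of the 10 highest had no ZT10 peak within 1 kb, with distances from 3.39 to 12.4 kb. The site at chr5:146565411-146565610 scored 6.7 at rank 177, and the nearest ZT10 peak, with a score of 3.6, lay 12.4 kb away. The site at chr6:47707769-47707968 also scored 6.7, at rank 178, and lay 3.39 kb from a shared site that scored 6.2 at ZT10. The last of the 10 highest, chr1:34379347-34379546, scored 4.6 at rank 729 and lay 4.44 kb from a ZT10 peak with a score of 1.2. Of the 9 sites with a score of 5 or more, 5 had a ZT10 peak within 1 kb and 4 did not.

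**Figure D3:**
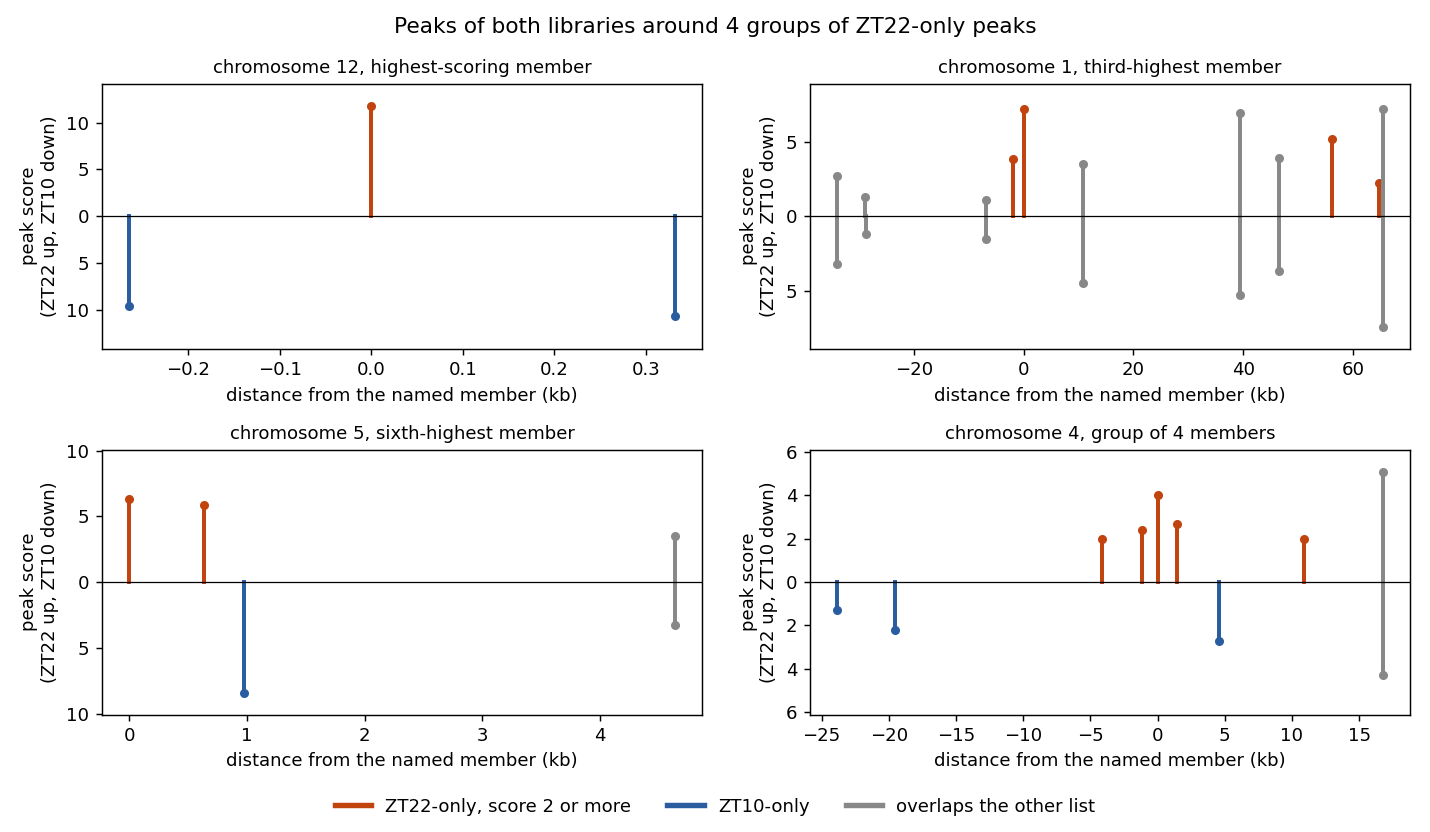
Peaks of the ZT22 list (score upwards) and the ZT10 list (score downwards) against distance in kb from a named ZT22-only site on chromosomes 12, 1, 5 and 4; orange marks ZT22-only confident peaks, blue ZT10-only peaks and grey peaks that overlap the other list. On chromosome 12 the site with a score of 11.8 falls between ZT10 peaks of 9.6 and 10.7, whereas on chromosome 1 all ZT10 peaks have ZT22 partners.

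Most ZT22-only sites had no other within 5 kb. With starts up to 5 kb apart, 1237 of the 1315 stood alone among their kind, 34 pairs were found, and 3 groups held 3 or more. From 1 to 10 kb, 144 of the 1437 ZT22 neighbours of ZT22-only sites were themselves ZT22-only and confident, against 551 of 7992 (6.89%) around shared confident peaks. From 10 to 50 kb these were 318 of 4283 (7.42%) and 1442 of 22258 (6.48%), and within 1 kb 18 of 273 (6.59%) and 128 of 1416 (9.04%). ZT22-only sites were thus a larger part of the neighbours of their own kind beyond 1 kb and a smaller part within it, which was not tested. Each pair of ZT22-only sites was counted from both of its sites, so the counts of 144, 318 and 18 all stand for fewer pairs. The group of 4, at chr4:107560541-107566335, had scores of 2.0, 2.4, 4.0 and 2.7 and no ZT10 peak within its 5795 bp. A ZT10-only peak with a score of 2.7 lay 3.09 kb beyond it, followed by a further ZT22-only site with a score of 2.0 and a site listed at both times (5.1 at ZT22, 4.3 at ZT10). The group at chr11:98109294-98114130 had scores of 2.1, 2.8 and 2.8, and the nearest ZT10 peak lay 44.8 kb away. The group at chr8:97243244-97252714 had scores of 2.2, 2.3 and 2.4 and enclosed a shared site, with another shared site 644 bp from its last member.

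Other ZT22 peaks were about as common beside ZT22-only sites as beside shared ones. Another ZT22 peak lay within 5 kb of 677 ZT22-only sites (51.5%, 48.7 to 54.2) and of 3579 (51.2%) of the 6991 shared confident peaks, whose interval lay within the first. The shares were also alike within 1 kb, at 19.2% (17.1 to 21.5) and 18.6% (17.7 to 19.5). Since ZT22-only sites have lower scores, the comparison was repeated by score. At scores from 2.0 to below 2.2 the ZT22-only sites had such a neighbour in 252 of 504 cases (45.5% to 54.5%) and the shared peaks in 48.0% (45.3 to 50.7). At scores of 3 or more they were 63.6% (55.2 to 71.5) of 143 ZT22-only sites and 53.1% (51.2 to 55.0) of 2734 shared peaks. The last pair of intervals did not overlap, but the difference was not tested.

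**Figure D4:**
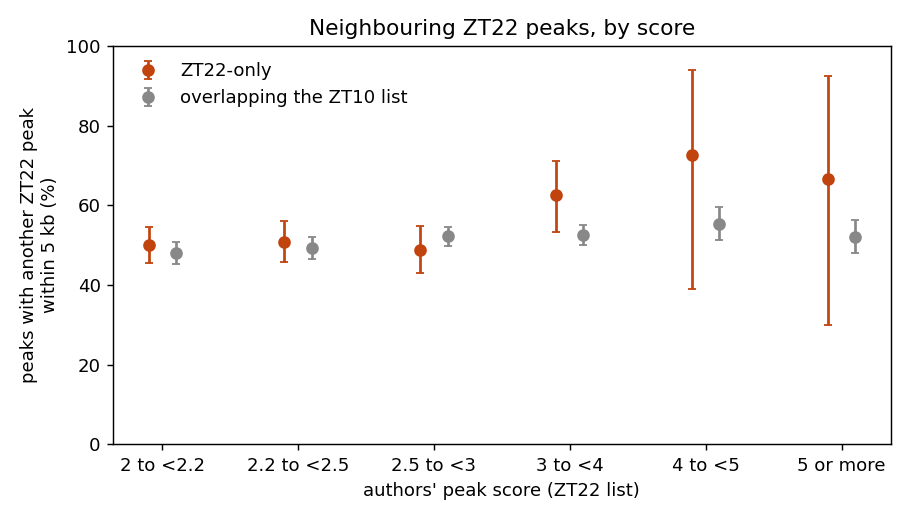
Percentage of confident ZT22 peaks with another ZT22 peak within 5 kb, by the authors' score, for ZT22-only sites (orange) and peaks that overlap the ZT10 list (grey); bars are exact 95% intervals. The groups lie close together below a score of 3, and the ZT22-only value is higher from 3 to below 4 (62.6% against 52.6%), where the intervals overlap.

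Beyond 1 kb, the surroundings of ZT22-only sites held unpartnered peaks of both libraries in nearly the proportion of the whole lists. Of all 16256 peaks without a partner, 58.3% were of ZT22. Between 1 and 10 kb from the ZT22-only sites, 539 ZT22 and 366 ZT10 peaks had no partner, so ZT22 made up 59.6%, against 59.2% around shared confident peaks. Between 10 and 50 kb the values were 58.0% and 58.5%. Within 1 kb the ZT22 part was smaller, at 43.7% (90 ZT22 and 116 ZT10 peaks) against 53.0% around shared peaks. From 1 to 10 kb, 37.5% of the ZT22 and 28.9% of the ZT10 neighbours of ZT22-only sites had no partner, against 32.8% and 25.2% around shared peaks. Within 1 kb these were 33.0% and 38.9%, against 33.8% and 31.1%. The same neighbour can be counted for several sites, so these shares carry no interval. Within 1 kb the comparisons with shared peaks are also partly fixed by the rule. The ZT10 partner of a shared peak starts less than 200 bp away and was left out. A ZT10 call shifted just past 200 bp from a ZT22-only site was counted, and can lack a partner.

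Fully isolated sites were rare. The nearest ZT10 peak lay more than 100 kb away for 63 sites, and 38 of these had no other ZT22 peak within 100 kb either. The farthest, at chr19:31148867-31149066, had a score of 2.3, with the nearest ZT10 peak 786 kb and the nearest ZT22 peak 566 kb away. The sites at chr7:40456532-40456731 (score 2.0) and chr9:104911243-104911442 (score 2.5) followed, at 701 and 697 kb from a ZT10 peak. A peak of the other list lay within 100 kb of 95.2% of ZT22-only sites. For ZT10-only confident sites this was 96.0%, and for ZT22-only peaks with scores below 2 it was 91.8%.

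Each autosome carried ZT22-only sites, and their share of the confident peaks was similar along the genome. It ran from 13.7% (10.8 to 17.1) on chromosome 6, with 67 of 489, to 19.7% (16.4 to 23.3) on chromosome 1, with 107 of 544. Chromosome 18 followed with 18.8% (13.9 to 24.4), and chromosome 11, which held most confident peaks, had 13.9% (11.3 to 16.8). The intervals of 19 of the 20 chromosomes held the pooled 15.8%; that of chromosome 1 lay just above it, and this was not adjusted for the number of chromosomes. On each of the 19 autosomes the ZT22-only share exceeded the ZT10-only share of confident ZT10 peaks, which ran from 6.12% on chromosome 19 to 10.8% on chromosome 13. Chromosome X had no ZT22-only site among its 20 confident ZT22 peaks, where 3 counts of the total would be 15.0% and the exact interval reaches 16.8%, and 3 ZT10-only sites among 25 confident ZT10 peaks.

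**Figure D5:**
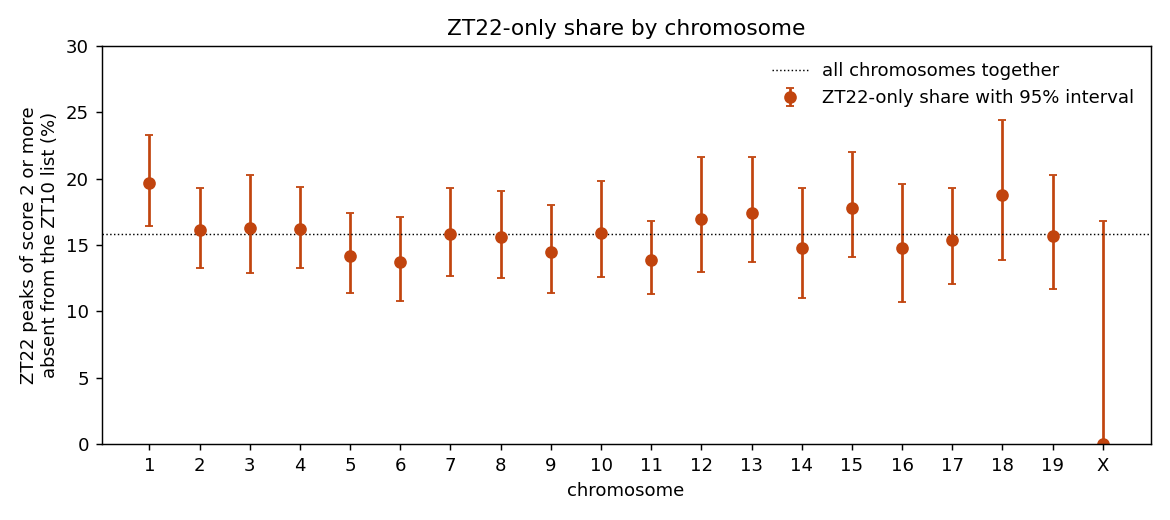
ZT22-only sites as a percentage of the confident ZT22 peaks of each chromosome, with exact 95% intervals; the dotted line is the value over all chromosomes, 15.8%. The autosomes lie between 13.7% and 19.7%, and X has 0 of 20.

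The sites were spread over 746 windows of 1 Mb, of the 1557 windows that held a confident ZT22 peak, and 421 of the 746 held a single site. The fullest window was chromosome 10 from 79000001 to 80000000, with 9 ZT22-only sites among 37 confident ZT22 peaks and 5 ZT10-only confident sites. Chromosome 1 from 74000001 to 75000000 held 8 of 14, and chromosome 19 from 4000001 to 5000000 held 8 of 24. Chromosome 12 from 81000001 to 82000000 held 7 of 18, and chromosome 4 from 107000001 to 108000000, the window of the group of 4, held 6 of 15 and was 1 of 4 windows with 6 sites. In these windows the full lists were of similar length, with 46 ZT22 and 39 ZT10 peaks in the chromosome 1 window and 36 and 35 in that of chromosome 12. ZT10-only confident sites numbered 2, 1, 1 and 3 in the windows of chromosomes 1, 19, 12 and 4. The windows were picked for their number of ZT22-only sites. Shares above the 15.8% of all confident ZT22 peaks are therefore partly a result of the choice.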

How the data were processed

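Per the labels, SMRT chromatin immunoprecipitation from 4 mice per time was pooled into 1 library per time, amplified for 15 PCR cycles and size-selected at about 250 bp. The authors deposited 1 peak list per library, in which each peak has a score with 1 decimal, from 1.0 upwards. The submitters' processing notes name HOMER and mm8. Aligner, calling settings and read numbers were not stated, so depth is unknown. The score, which is the authors', served to filter and rank peaks. Overlap meant at least 1 bp and was computed in Python 3.11.15 with NumPy 2.4.6, pandas 2.3.3 and SciPy 1.17.1; bedtools 2.31.1 gave the same 1315 sites, and the distance routine was tested on simulated lists. Shares carry exact 95% intervals. Named sites were the 10 highest scores and all of 5 or more, the 3 farthest from ZT10, the 3 nearest among the 50 highest, groups of 3 or more, and the 5 fullest 1 Mb windows, ties in genome order; other named positions and the score and distance bands were chosen after their values were seen. The sites and comparisons were chosen with earlier results of these data known. The planned gene lists, gene positions and motifs were not used here.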

Additional observations from a re-analysis of the deposited data

How the results depend on the processing

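The number and share of ZT22-only sites followed the score limit more than the overlap rule. The 1315 sites (15.8%) became 440 (9.15%) with a minimum score of 2.5 and 143 (4.97%) with one of 3. With 50% reciprocal overlap the count was 1526 (18.4%), with centres within 1000 bp 1046 (12.6%), and with only ZT10 peaks of 1.5 or more as partners 1510 (18.2%). The share within 1 kb of a ZT10 peak, 20.5%, became 31.5% with reciprocal overlap, 0 (by construction) with centres, and 27.3% at scores of 3 or more. The share within 10 kb, 62.8%, became 68.0% and 53.3% under the same rules, and 65.7% and 77.6% at scores of 2.5 and 3 or more. With only ZT10 peaks of 1.5 or more as partners, 15.8% lay within 1 kb and 51.1% within 10 kb of such a peak. Weaker ZT10 peaks were not counted there, so these values are not comparable with 20.5% and 62.8%. A ZT22 neighbour within 5 kb, at 51.5%, became 43.3% with centres within 1000 bp and 63.6% at scores of 3 or more; within 2 kb it was 32.3% and within 10 kb 65.9%. The lowest and highest autosomes, 13.7% and 19.7%, became 10.3% (chromosome 19) and 16.4% (chromosome 1) with centres within 1000 bp, 6.90% (14) and 15.7% (18) at 2.5 or more, and 1.37% (2) and 13.2% (18) at 3 or more, so the order of chromosomes depended on the limit. No paired analysis was possible because only 1 pooled library stands for a time, and neither could be left out. The planned gene and motif alternatives were not run. With depth unknown, a site missing from the ZT10 list is not shown to be unbound there.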

Other observations

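The ZT22-only share ran from 13.8% to 16.7% across windows grouped by their number of ZT22 peaks. In windows of 1 Mb with 1 to 5 ZT22 peaks, 13.8% (95% interval 10.6 to 17.4) of 421 confident ZT22 peaks were ZT22-only. With 6 to 10 peaks it was 16.4% (14.1 to 19.0) of 932, and with 11 to 20 it was 15.0% (13.6 to 16.5) of 2413. In windows with 21 to 40 peaks the share was 16.7% (15.5 to 18.0) of 3408, and in those with 41 to 77 it was 15.2% (13.2 to 17.4) of 1132. The intervals overlapped. A window's peak number includes the ZT22-only sites themselves, and the bands were chosen after seeing the data.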
